A study of Mus musculus with 4 samples.

Results

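Type I interferon stimulated genes are the genes that interferon alpha and beta switch on. A list of 36 such genes was followed in regulatory T (Treg) cells in which Cyld was deleted, set against cells with intact Cyld. Of the 36, 34 had a probe set annotated with exactly 1 gene symbol, and 33 passed the filter on low values and were tested, among 13956 tested genes of 19938 measured. No member had more than 1 such probe set. The only probe set listed for Isg15 is shared with a second gene and none was listed for Ifi44, so neither was analysed here. Mx2 stayed below the filter.

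The samples were YFP-positive Treg cells sorted by flow cytometry from C57Bl6 mice aged 6 to 8 weeks. The knockout (KO) cells came from Cyld fl/fl Foxp3-yfp-cre animals (2 arrays) and the wild-type (WT) cells from Cyld+/+ Foxp3-yfp-cre animals (2 arrays). Both groups thus carry the same Cre recombinase with yellow fluorescent protein under Foxp3, and Cyld is deleted where Foxp3 is active. CYLD is a deubiquitinase that trims lysine-63-linked and linear ubiquitin chains. The labels name spleen together with lymph nodes in one field and spleen alone in another, and do not say whether animals were pooled or whether replicates came from separate mice, so p-values measure only the spread between these samples, which may be technical.

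Interferon alpha and beta bind the receptor IFNAR1/IFNAR2, and the kinases JAK1 and TYK2 then signal to the nucleus. STAT2 and IRF9 are parts of the complex ISGF3, which binds interferon-stimulated response elements in target promoters. USP18 is both a target and a brake of this pathway: it removes the ubiquitin-like protein ISG15 from its substrates and, bound to IFNAR2, damps the receptor.

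The promoters of Ifit1, Ifit3, Rsad2 and Parp12 are shown as examples, as the 250 bases before the gene start (RefSeq, GRCm38.p6). Ifit1 and Ifit3 fell in the knockout, Rsad2 differed between the KO arrays, and Parp12 read higher on both KO arrays. Capitals mark matches to GAAANNGAAA, the core letters of the response element, on either strand (TTTCNNTTTC as printed), where matches may overlap.
Ifit1 (chr19:34640639-34640888, plus strand): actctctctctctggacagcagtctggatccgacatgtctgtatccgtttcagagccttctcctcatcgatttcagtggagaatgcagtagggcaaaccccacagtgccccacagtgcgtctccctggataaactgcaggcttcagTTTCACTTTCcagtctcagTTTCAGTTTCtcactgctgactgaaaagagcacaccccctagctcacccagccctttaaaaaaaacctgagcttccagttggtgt
Ifit3 (chr19:34583279-34583528, plus strand): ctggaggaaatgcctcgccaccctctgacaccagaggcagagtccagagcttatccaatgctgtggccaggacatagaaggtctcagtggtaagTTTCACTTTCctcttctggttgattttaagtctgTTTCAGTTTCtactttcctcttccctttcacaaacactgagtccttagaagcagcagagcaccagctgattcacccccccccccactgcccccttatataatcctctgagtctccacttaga
Rsad2 (chr12:26456453-26456702, minus strand): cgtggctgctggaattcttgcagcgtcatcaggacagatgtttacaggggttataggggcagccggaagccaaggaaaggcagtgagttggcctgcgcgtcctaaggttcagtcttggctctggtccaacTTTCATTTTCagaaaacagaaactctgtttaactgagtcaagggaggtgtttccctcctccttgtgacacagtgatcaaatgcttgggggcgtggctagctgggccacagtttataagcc
Parp12 (chr6:39118350-39118599, minus strand): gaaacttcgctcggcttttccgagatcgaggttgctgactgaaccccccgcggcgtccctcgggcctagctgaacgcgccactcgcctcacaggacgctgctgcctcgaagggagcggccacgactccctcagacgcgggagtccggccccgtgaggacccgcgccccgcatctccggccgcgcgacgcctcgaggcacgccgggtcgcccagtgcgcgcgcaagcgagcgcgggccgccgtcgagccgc
The Ifit1 matches begin 104 and 85 bases before the start, the Ifit3 matches 156 and 122 bases before it and the Rsad2 match 120 bases before it. The Parp12 window holds no match. Over windows of 300 bases that also hold the first 50 bases of the gene, 11 of the 25 tested members with a window had a match, against 3.99% of all genes with one and 3.44% of all 32851 windows. Of the 7 members that fell, 5 had a window and 2 of these, Ifit1 and Ifit3, a match. Trim25, Samd9l and Oasl1 fell and had a window without a match. The other tested members with a match were Bst2, Ddx58, Eif2ak2, Ifih1, Oas1a, Oas3, Rsad2, Stat2 and Trim30a, which did not pass the test below in either direction. Among them, Eif2ak2 and Ifih1 read above WT on both KO arrays, Bst2, Stat2 and Trim30a read below, and the rest overlapped. Whether a match goes with the direction of change was not tested. Usp18 and Oas2 are named only.

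The arrays read between 26.6 and 7205 on a linear intensity scale, with array medians of 103 and 98.98 in KO and 101 and 105 in WT. Cyld read 284 and 218 on the KO arrays, against 524 and 502 on the WT arrays; which part of the gene the probe set covers is not known. The Treg markers Foxp3 and Cd4 read 1553 to 2169 on the KO arrays and 1818 to 2033 on the WT arrays. KO replicate 2 stood apart from the other 3 arrays in Y-linked genes: Kdm5d read 127 there and 268 to 275 on the others, and Uty read 132 there and 219.7 to 283 on the others. Xist read 1630 and 2321 in KO and 1306 and 1403 in WT. By the test described below, Xist was called higher in KO, Kdm5d and Eif2s3y, another Y-linked gene, were called lower, and Uty did not pass. KO replicate 2 also carried more of the proliferation genes. Their summed intensity over 24 genes was 11720 and 18076 on KO arrays 1 and 2, against 9240 and 9019 on the WT arrays. Of the 24, 20 rose and 0 fell, where 4.79% of all tested genes were higher and 3.50% lower by the same test. Of 10 Treg and CD4 T cell markers 1 fell, Izumo1r. For this reason results are given for each KO array.

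The members of the list that passed the test were all lower in the knockout. Of the 33 tested, 7 fell and 0 rose at an adjusted p under 0.05 in limma: Usp18, Ifit3, Ifit1, Oas2, Trim25, Samd9l and Oasl1. That is 21.2% of the tested members, where 3.50% of all tested genes were lower and 4.79% higher by the same rule. The median log2 fold change was -0.22 over the members and -0.02 over all tested genes, and 25 members had a value below 0 and 8 above it. Both KO arrays read below both WT arrays for 16 of the 33 members, or 48.5%, and for 26.2% of all tested genes. Both read above for 4 members, or 12.1%, and for 22.5% of all tested genes.

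The other 26 members did not pass, with log2 fold changes between -0.47 and 0.45. At an unadjusted p under 0.05 in limma, 11 members were lower and 2 higher. Of all 13956 tested genes, 2788 were under that value in either direction. The estimated spread was the same for all genes, so each log2 fold change has a standard error of 0.17. A fit that estimates the spread gene by gene called 0 of 13956 genes, with 1813 at an unadjusted p under 0.05, among them 6 members that were lower and 1 that was higher. In bulk RNA, fewer cells of a type and less RNA per cell cannot be told apart.

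**Figure D1:**
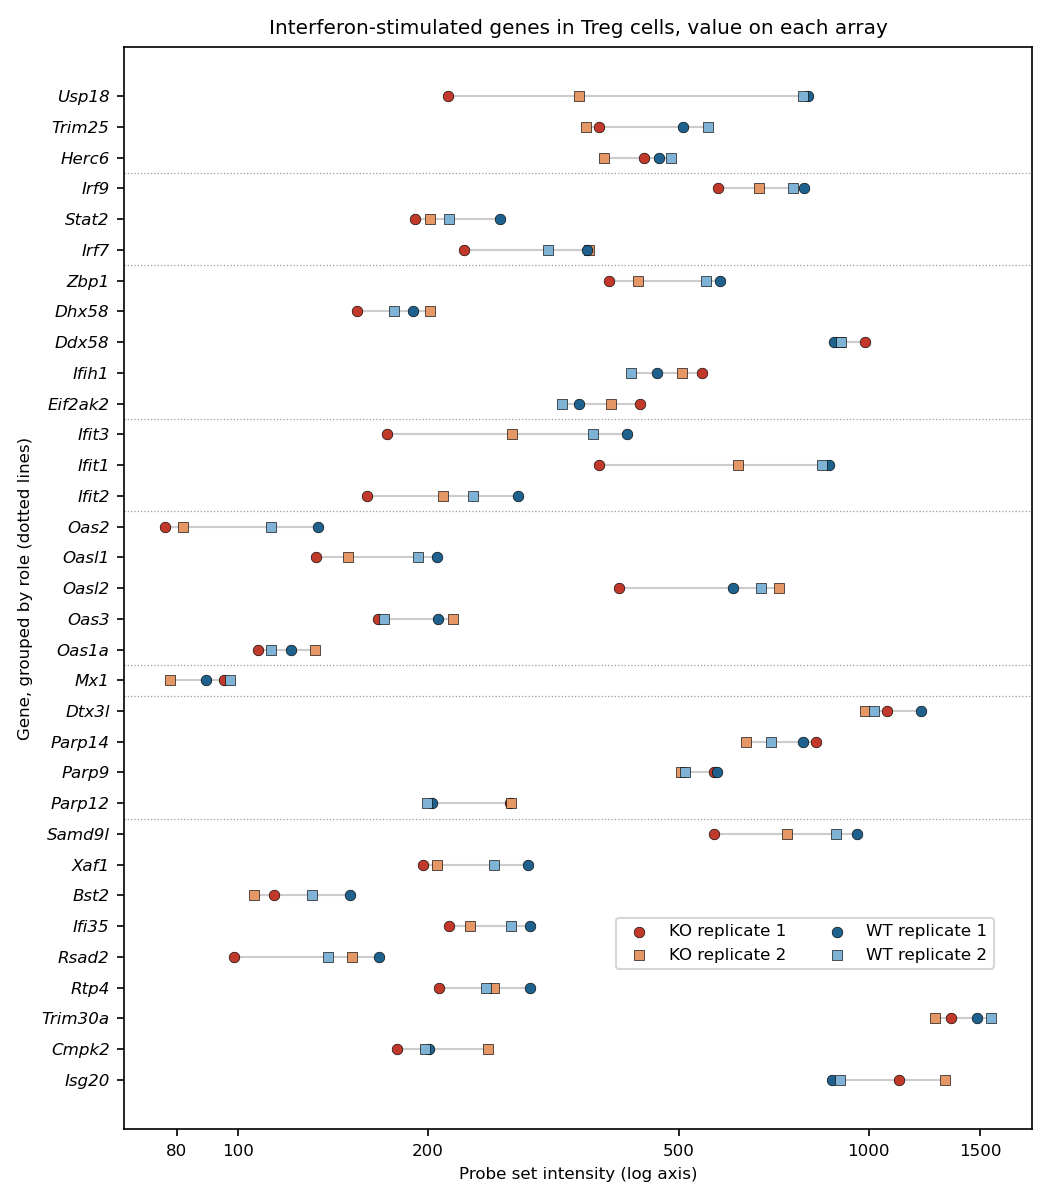
Probe set intensity (log axis) of the 33 tested interferon-stimulated genes on each of the 4 arrays, grouped by role; red and orange points are KO replicates 1 and 2, dark and light blue points WT replicates 1 and 2, and the grey line spans the 4 values. Usp18 has the widest gap between the genotypes, with KO points at 215 and 347 and WT points at 802 and 787.

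The ISG15 cycle held the largest fall. Usp18 read 215 and 347 on the KO arrays, against 802 and 787 on the WT arrays, and the groups did not overlap. Its log2 fold change was -1.54 (95% interval -1.87 to -1.20, limma adjusted p = 4.96e-17), which put it at rank 5 from the bottom among all tested genes. That interval and p rest on the spread pooled over all genes, with a standard error of 0.17. In the fit that estimates the spread gene by gene, the standard error of Usp18 was 0.34 and its adjusted p 0.375. KO replicate 1 held 27.1% and KO replicate 2 held 43.7% of the mean WT level. Trim25, a ubiquitin and ISG15 ligase that also activates the sensor RIG-I, read 374 and 356 in KO and 507 and 557 in WT. Its log2 fold change was -0.54 (adjusted p = 0.0216), and unlike Usp18 its KO values lay close together. Herc6, the main ISG15 ligase in mice, read 440.1 and 380.2 in KO and 466 and 486 in WT, a log2 fold change of -0.22 (95% interval -0.55 to 0.12) that did not pass.

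Usp18 stood below every other tested member on both KO arrays. Relative to the WT mean it was at -1.88 on the log2 scale on KO replicate 1, where the lowest of the other 32 members, Ifit1, was at -1.19 and their median at -0.31. On KO replicate 2 it was at -1.19, with the lowest other member, Oas2, at -0.58 and the median at -0.21. Its distance from the median of the others was -1.57 and -0.98 on the KO arrays and -0.04 and 0.04 on the WT arrays. The log2 fold change of Usp18 lay 0.70 beyond that of Ifit3, the next member, a difference given with no test since Usp18 was already known to stand out. Without Usp18 the members' median log2 fold change was still -0.22.

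The IFIT proteins, which bind foreign RNA and restrain its translation, came next. Ifit3 read 173 and 272 in KO and 414 and 366 in WT, a log2 fold change of -0.84 (adjusted p = 3.71e-05). Ifit1 read 374 and 620 in KO and 866 and 843 in WT, a log2 fold change of -0.83 (adjusted p = 5.19e-05). In both genes the KO arrays differed widely but stayed below the WT arrays. In the fit that estimates the spread gene by gene, the standard errors were 0.34 for Ifit3 and 0.36 for Ifit1. The unadjusted p-values of that fit were 0.132 and 0.151. Ifit2, whose probe set read 160.1 and 211 in KO and 278 and 236 in WT, just missed the threshold (log2 fold change -0.47, adjusted p = 0.0583). Ifit2 and Ifit3 are next to each other on chromosome 19. Ifit3 has a near-identical copy, Ifit3b, which may share signal with it, so its value is uncertain to that extent.

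Among the 5 tested genes of the OAS family, which make the messenger that activates RNase L or resemble the enzymes that do, 2 fell and 3 did not pass. Oas2 read 76.8 and 81.9 in KO and 134 and 113 in WT (log2 fold change -0.63, adjusted p = 0.00494). Oasl1, which in mice restrains the translation of Irf7, read 133 and 149.8 in KO and 207 and 193 in WT (log2 fold change -0.50, adjusted p = 0.0421). Both were lower on both KO arrays, with KO values close to each other. Oasl2, the neighbour of Oasl1, behaved otherwise: it read 402 and 720.4 in KO and 609.5 and 674 in WT, so that the KO values lay on either side of the WT values. Oas3, the neighbour of Oas2, read 167 and 220 in KO and 208 and 171 in WT, and Oas1a read 108 and 133 in KO and 122 and 113 in WT. Both overlapped between the genotypes, with log2 fold changes of 0.02 and 0.03; Oas1a has a second probe set shared with Oas1g, which was not used.

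The transcription factors of the pathway did not pass the test. Irf9, the DNA-binding part of ISGF3, read 576 and 669 in KO and 788 and 758 in WT (log2 fold change -0.32, 95% interval -0.65 to 0.02). Stat2 read 191 and 202 in KO and 260.5 and 216 in WT (log2 fold change -0.27, 95% interval -0.60 to 0.06). Both were below WT on both KO arrays. Irf7, which amplifies interferon production, read 228 and 359.7 in KO and 358 and 310.0 in WT and overlapped (log2 fold change -0.22).

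The sensors of foreign nucleic acid did not pass either, and they pointed both ways. Zbp1, a sensor of Z-form nucleic acid, read 388 and 431 in KO and 580.3 and 552 in WT (log2 fold change -0.47, adjusted p = 0.0640). Ifih1, the sensor MDA5, read 544 and 505 in KO and 462 and 419.6 in WT, above WT on both KO arrays (log2 fold change 0.25). Eif2ak2, the kinase PKR, read 434 and 390.1 in KO and 347 and 327 in WT (log2 fold change 0.29). Ddx58, which encodes RIG-I, overlapped, at 986 and 900.3 in KO and 881 and 904 in WT. Dhx58, which encodes LGP2, also overlapped, at 155 and 202 in KO and 189.6 and 177 in WT.

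The ADP-ribosyltransferases and their partner showed no call. Parp9, Parp14 and Dtx3l, which lie next to one another on chromosome 16, overlapped between the genotypes. Parp9 read 569 and 504 in KO and 574 and 512 in WT, and Dtx3l, the ubiquitin ligase that pairs with PARP9, read 1070.0 and 987 in KO and 1208 and 1019.8 in WT. Parp14 read 823 and 639 in KO and 787 and 701 in WT. The 95% interval of the log2 fold change was -0.35 to 0.31 for Parp9, -0.44 to 0.22 for Dtx3l and -0.37 to 0.30 for Parp14. Parp12 differed from them in position, with 269.6 and 271 in KO and 203 and 199 in WT, above WT on both arrays, but did not pass (log2 fold change 0.43, adjusted p = 0.110).

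Among 9 other tested effectors, Samd9l, a restriction factor and growth suppressor, fell. It read 569 and 742 in KO, against 959 and 888 in WT (log2 fold change -0.51, limma adjusted p = 0.0376). In the fit that estimates the spread gene by gene, the standard error of Samd9l was 0.20 and its unadjusted p 0.127. Xaf1, a promoter of apoptosis, read 197 and 207 in KO and 288 and 255 in WT, Bst2 or tetherin 114 and 106 in KO and 151 and 131 in WT, and Ifi35 216 and 234 in KO and 290.0 and 271 in WT; these 3 did not overlap and did not pass. Trim30a, a TRIM protein that in mice limits NF-kB signalling, was also below WT on both KO arrays (1352 and 1273 in KO, 1483 and 1561 in WT). Rtp4, a chaperone of cell surface receptors, overlapped, at 209 and 255 in KO and 291 and 247 in WT. Isg20, a 3′ to 5′ RNA exonuclease, had the highest log2 fold change of the 33, 0.45 (95% interval 0.12 to 0.78, adjusted p = 0.0801), with 1115 and 1319 in KO and 874 and 901 in WT. Of the Mx GTPases, Mx1 read 95.03 and 78.0 in KO and 89.2 and 97.2 in WT, and Mx2 read 70.6 and 66.0 in KO and 81.2 and 90.3 in WT; Mx1 is defective in C57BL/6 mice.

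**Figure D2:**
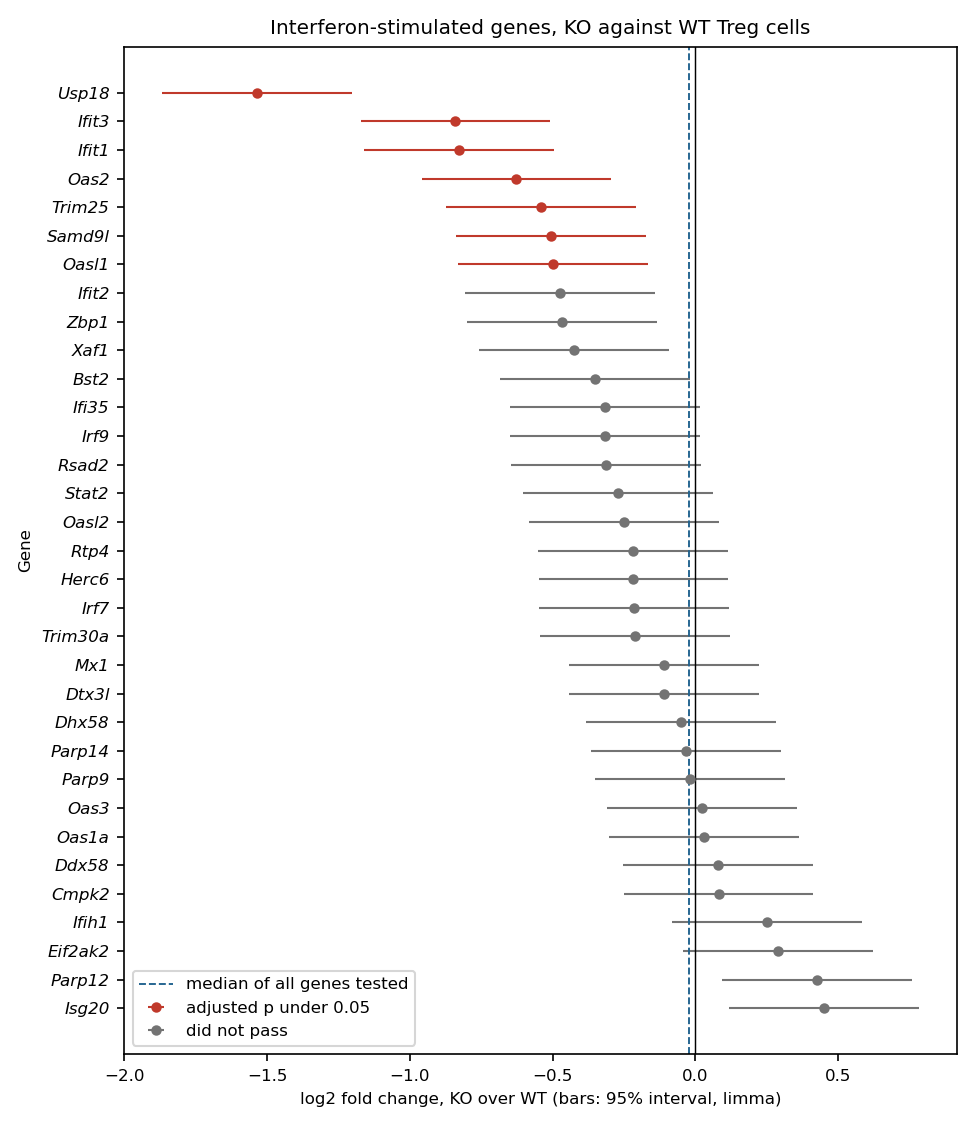
Log2 fold change of each tested interferon-stimulated gene, KO over WT, with its 95% interval from limma (2 arrays per genotype); red points passed an adjusted p under 0.05 and grey points did not, and the dashed line is the median of all tested genes, -0.02. Values run from -1.54 for Usp18 to 0.45 for Isg20, and the 7 that passed are all below 0.

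The KO arrays differed from each other in part of the list. KO replicate 1 read more than 1.5-fold below KO replicate 2 for 6 of the 33 members, 18.2%, and for 1.39% of all tested genes. These were Oasl2, Ifit1, Usp18, Ifit3, Irf7 and Rsad2. It read more than 1.5-fold above KO replicate 2 for 0 members, and for 0.874% of all tested genes. The WT arrays differed by that much in 0 members and in 0.201% of all tested genes, and their largest log2 difference among the members was 0.28, for Oas3. With 1 array against 1 there is no test of these differences.

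Oasl2 showed the widest gap, with KO replicate 1 lower by 0.84 on the log2 scale. Rsad2, the antiviral enzyme viperin, read 98.8 and 152 in KO and 167 and 139 in WT, and its neighbour Cmpk2, a mitochondrial nucleotide kinase, 179 and 249 in KO and 201 and 198 in WT. On KO replicate 2, Oasl2, Irf7 and Cmpk2 read above the WT mean, at 112%, 108% and 125% of it, and Rsad2 was at 99.1%; on KO replicate 1 these 4 were at 62.7%, 68.4%, 89.7% and 64.5%. For 11 of the 33 members the order was the other way, with KO replicate 2 the lower array. These were Trim25, Herc6, Bst2, Trim30a, Mx1, Ddx58, Ifih1, Eif2ak2 and the Parp9, Dtx3l and Parp14 neighbours. The members' median, relative to the WT mean, was -0.31 on KO replicate 1 and -0.22 on KO replicate 2, where the median of all tested genes was -0.01 and -0.04. On KO replicate 1, 25 of the 33 members were below the WT mean, and on KO replicate 2, 22 were.

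**Figure D3:**
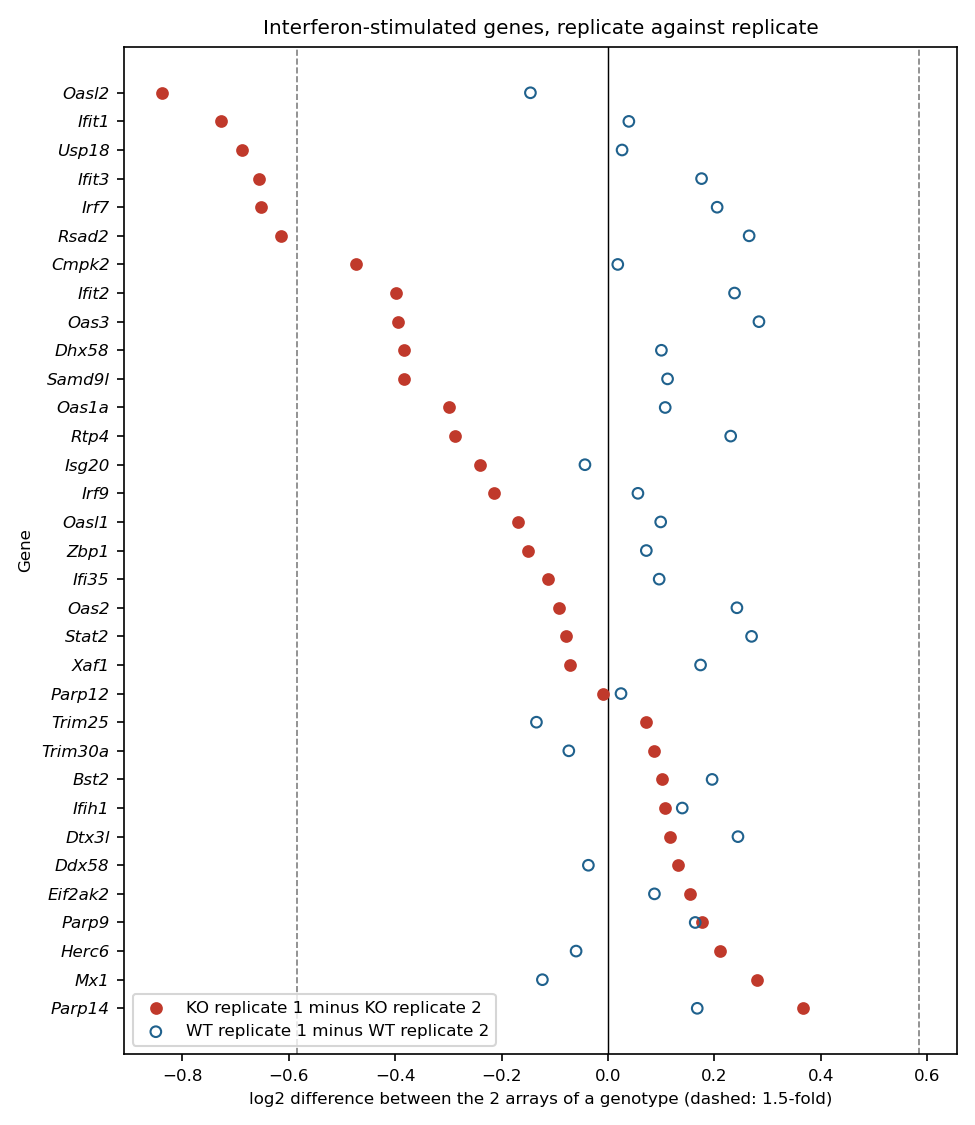
Log2 difference between the 2 arrays of a genotype for each tested interferon-stimulated gene: filled red points are KO replicate 1 minus KO replicate 2, open blue points WT replicate 1 minus WT replicate 2, and dashed lines mark 1.5-fold. At the top, 6 red points lie left of the lower line, from Oasl2 at -0.84 to Rsad2 at -0.61, and no blue point passes either line.

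Leaving out single arrays moved the log2 fold changes of the members. Their median was -0.31 without KO replicate 2 and -0.22 without KO replicate 1. The median of all tested genes was -0.01 and -0.04 in these fits. Without WT replicate 1 the members' median was -0.18, and without WT replicate 2 it was -0.32. Usp18 was at -1.88 without KO replicate 2 and at -1.19 without KO replicate 1. Ifit3 was at -1.17 and -0.51 in the same order, Oasl2 at -0.67 and 0.17, and Isg20 at 0.33 and 0.57. In each of these 4 fits, 1 genotype has a single array. That array is assumed to vary like the other genotype's pair and the spread pooled over all genes.

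Further interferon-stimulated genes outside the list were also tested. Of 63 listed, 48 were tested, and 7 fell and 1 rose, where 3.50% of all tested genes were lower and 4.79% higher. The median log2 fold change was -0.18. The ones that fell were Slfn1 and Slfn5 of the Schlafen family, some members of which restrain T cell growth, the membrane proteins Ms4a4b, Ms4a4c and Ms4a6b, Mitd1 and Oas1b. Slfn1 read 338 and 443 in KO and 758 and 712 in WT (log2 fold change -0.92). Ms4a4b read 1258 and 1150.3 in KO and 2059 and 1963 in WT (log2 fold change -0.74), and Oas1b, of the OAS family, 79.4 and 81.6 in KO and 121 and 109.9 in WT (log2 fold change -0.51). The gene that rose was Ifitm2, a membrane protein that blocks viral entry, with 846 and 1017 in KO and 264 and 242 in WT (log2 fold change 1.87). Its relatives Ifitm1 and Ifitm3 did not pass, with log2 fold changes of 0.39 and -0.04. Ifitm2 has 3 probe sets of exactly 1 symbol and Ifitm1 has 2, and only the brightest of each was used. KO replicate 1 was more than 1.5-fold below KO replicate 2 for 0 of these 48 genes and more than 1.5-fold above it for 1, where the shares of all tested genes were 1.39% and 0.874%.

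Among targets that interferon gamma or NF-kB also induce, 3 of 20 tested rose, 0 fell and the other 17 did not pass, where 4.79% of all tested genes were higher and 3.50% lower. The median log2 fold change was 0.25, with 15 values above 0 and 5 below it. Cxcl10, a chemokine for CXCR3-bearing cells, read 753 and 772 in KO and 240.2 and 235 in WT (log2 fold change 1.68). Cxcl11 read 126 and 145 in KO and 85.5 and 98.1 in WT (log2 fold change 0.56), and the adhesion molecule Icam1 546 and 469 in KO and 311 and 316 in WT (log2 fold change 0.69). Irf1, a transcription factor of the gamma response, read 978 and 775 in KO and 700.4 and 766 in WT on the brightest of its 2 probe sets. It did not pass (log2 fold change 0.25).

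Genes upstream of the members were called in both directions, where 3.50% of all tested genes were lower and 4.79% higher. Of 8 tested receptors, kinases and STATs, 1 fell: Ifngr2, a chain of the interferon gamma receptor (330.1 and 323 in KO, 503 and 428 in WT; log2 fold change -0.50). Ifnar1 read 471 and 449 in KO and 677 and 583 in WT and did not pass (log2 fold change -0.45, adjusted p = 0.0809), nor did Ifnar2 (log2 fold change -0.17) or Jak1 (-0.32). Of 13 genes listed as brakes on the pathway 1 fell, Socs3, a feedback inhibitor of cytokine receptors. The brightest of its 2 probe sets read 199 and 209 in KO and 319 and 301 in WT (log2 fold change -0.60). Socs1 had a log2 fold change of -0.34 and did not pass. The 13 also hold Ifnar2, a receptor chain that is counted among the 8 above as well. Of 14 tested genes of the sensing pathways, Irf5 and Cgas rose (log2 fold changes 0.83 and 0.51) and Tlr7, an endosomal RNA sensor, fell (136 and 224 in KO, 510.4 and 421 in WT; log2 fold change -1.41). Of the interferon genes, Ifng rose (280.0 and 194 in KO, 153 and 149 in WT; log2 fold change 0.63). The other 14 measured had array medians of 83.2 and 73.6 in KO and 72.8 and 74.8 in WT, below the median of their arrays, and 0 of the 6 above the filter were called; the brightest, Ifnl2, read 325 to 343 on the KO arrays and 337 to 340.0 on the WT arrays.

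Markers of splenic macrophages and monocytes were mostly lower in the knockout alongside the members. Of 24 listed, 18 were tested, 12 fell and 1, Axl, rose, where 3.50% of all tested genes were lower and 4.79% higher. The median log2 fold change of the macrophage and monocyte markers was -0.90. The 12 that fell read 53.4 to 327 on the KO arrays and 109 to 710.3 on the WT arrays. C1qb, a complement chain, read 78.7 and 95.3 in KO and 292 and 219 in WT, and Csf1r 73.6 and 102 in KO and 230 and 214 in WT. The summed intensity of the 23 measured markers was 4035 and 4470 in KO and 5006 and 4823 in WT; without Axl, left out after its values were seen, it was 2117 and 2408 in KO and 4043 and 3824 in WT. No marker is listed at 0, and the lowest value was 51.6. Of the plasmacytoid dendritic cell markers 1 of 8 tested fell, Pacsin1, and Siglech read 88.1 and 87.5 in KO and 111 and 102 in WT. Whether macrophage RNA has a part in the members' values was not tested. Between the KO arrays, the macrophage list had a median log2 difference of -0.20, replicate 1 over replicate 2, the proliferation list -0.62 and the interferon-stimulated genes -0.15; the part of either in the differences between the KO arrays was not tested.

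**Figure D4:**
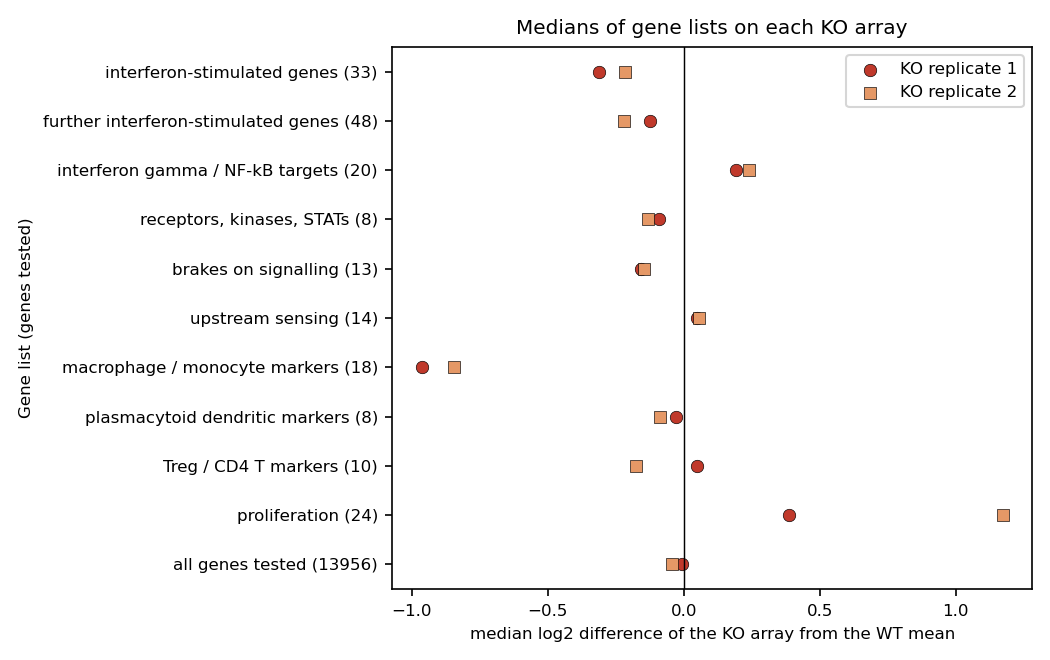
Median log2 difference of each KO array from the WT mean, for 10 gene lists and all tested genes, with the number of genes tested in brackets; red circles are KO replicate 1 and orange squares KO replicate 2. The interferon-stimulated genes lie at -0.31 and -0.22, the macrophage markers at -0.96 and -0.84, and the proliferation genes at 0.39 and 1.17.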

How the data were processed

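RNA of the sorted cells was made into biotin-labelled cRNA for Affymetrix arrays, per the labels. The authors deposited linear intensities, 1 per probe set and array; their summarisation, background correction and scaling are not known here. Background in the signal understates the folds of dim genes. Of 35557 probe sets, 21789 had exactly 1 symbol in the platform annotation (2016), 1621 several and 12147 none listed. Entrez identifiers of 21698 matched RefSeq (GRCm38.p6), and 0 symbols changed.

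The deposited values were put on the scale log2(value + 1), which understates folds of low values. Each gene was represented by its brightest probe set, and a gene was tested if its mean log2 value passed the 30th percentile (6.29). The test was limma 3.58.1 in R 4.3.3, KO over WT, with Benjamini-Hochberg adjustment over all 13956 genes and a threshold of 0.05. Each gene taken alone has 2 residual degrees of freedom. In the main fit, limma replaced each gene's own replicate spread with the pooled spread, so the p-values were computed on 27912 degrees of freedom. The very small p-values from 2 against 2 arrays rest on that pooling. Every adjusted p is from limma. The fit was tested on simulated data in which every gene had the same spread, so that test cannot check the pooling. The number of arrays limits the precision. Members, lists and tests were chosen with earlier results of these data known. All members are named, and other genes where a list holds them and they were called, or as defining markers of a list; Irf1, Ifnar1, Ifnar2, Jak1, Socs1, Ifitm1, Ifitm3, Kdm5d, Uty, Eif2s3y, Xist and Ifnl2 were named after their values were seen. Of marker lists not described in the report, B cells had 0 called of 5 tested, CD8 T and NK cells 1 of 6 (Eomes, higher), conventional dendritic cells 1 of 7 (Sirpa, lower) and granulocytes 0 of 3. Of all tested genes, 4.79% were higher and 3.50% lower. Alternatives covered the filter, normalization, pseudocount, variance model, probe set choice, replicate block and each array left out.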

Additional observations from a re-analysis of the deposited data

How the results depend on the processing

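Only 2 arrays per genotype and a spread pooled over all genes limit these calls. With no pooling of variances 0 genes and 0 members were called, and Usp18, at -1.54, had an adjusted p = 0.375; across the other 12 alternatives Usp18 and Ifit3 passed each time. Leaving out 1 array gave 407 to 1686 called genes, against 1157, 3 to 11 lower members, 0 to 1 higher members (Isg20) and a median log2 fold change of the members of -0.32 to -0.18; Usp18 ran from -1.88 to -1.19. With 16 added before the logarithm or an intensity trend in the prior variance, 1 member, Isg20, was higher, and Zbp1 passed as lower; Ifit2 also passed with 16 added (adjusted p = 0.0483), and Oasl1 did not pass with the trend (adjusted p = 0.0676). With the replicate number as a block (replicate block) 5 members were lower, Samd9l and Oasl1 having adjusted p-values of 0.0562 and 0.0622; the numbers are not shown to pair the samples (correlation of the replicate differences across genes -0.09). No filter, a filter at the median, quantile normalization, equal array medians and the mean over probe sets gave 6 to 8 lower and 0 higher members. No called member changed sign under any alternative run.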
